A study of Mus musculus with 4 samples.

Results

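The Cyp4 genes encode cytochrome P450 enzymes that add a hydroxyl group to the last carbon of fatty acids and eicosanoids, and 10 of them were followed here in mouse liver: *Cyp4a10*, *Cyp4a14*, *Cyp4a12a*, *Cyp4a12b*, *Cyp4a31*, *Cyp4a32*, *Cyp4f13*, *Cyp4f14*, *Cyp4f15* and *Cyp4v3*. They were found by gene symbol among the 35739 genes of the deposited abundance table, which holds 28 rows of the Cyp4a, Cyp4b, Cyp4f, Cyp4v and Cyp4x families. The 10 genes were chosen from their values in these same libraries, so their levels and differences between genotypes are given as a description and without a test. Liver RNA was sequenced from wild-type mice (WT, replicates 2 and 3) and from *Usp21* knockout mice (KO, replicates 1 and 3), with 2 libraries per genotype. The KO is constitutive: Cre-mediated removal took exons 3 and 4 out of the deubiquitylase gene *Usp21* in every tissue, so a difference in liver need not start in hepatocytes. Both genotypes were littermates of 10 to 11 weeks on a normal diet and a 12 h light and 12 h dark cycle, bred from C57BL/6 mice and mixed-background carriers of the KO allele. The labels give neither sex nor hour of collection. Abundance is in TPM, a measure corrected for transcript length and scaled to the same total in every library.

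In omega oxidation, a Cyp4 enzyme in the endoplasmic reticulum receives electrons from NADPH through the reductase encoded by *Por* and hydroxylates the end of the fatty acid chain. Alcohol and aldehyde dehydrogenases then make a dicarboxylic acid, which peroxisomes shorten by beta-oxidation. In mouse liver the Cyp4a genes are known for different kinds of control: *Cyp4a10* and *Cyp4a14* are classic targets of PPAR-alpha, the nuclear receptor that fatty acids and fibrates activate, whereas *Cyp4a12a* is expressed mainly in males and responds to androgen and growth hormone. Cyp4f enzymes inactivate leukotriene B4 and other eicosanoids, and *Cyp4v3* is the mouse counterpart of human *CYP4V2*, the gene mutated in Bietti crystalline dystrophy of the retina.

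Some of the Cyp4 genes are close copies of each other, and how close they are bears on the values of those genes, since reads are shared out between similar transcripts. In the GENCODE M21 annotation (build GRCm38) the 6 Cyp4a genes lie together on chromosome 4, from 115299046 (start of *Cyp4a12a*) to 115621602 (end of *Cyp4a32*). *Cyp4f15* (32685627 to 32703352), *Cyp4f14* (32905070 to 32917342) and *Cyp4f13* (32924688 to 32947402) lie on chromosome 17, and *Cyp4v3* lies on chromosome 8 from 45304944 to 45333216. The coding stretch around the cysteine that holds the haem iron, the most conserved part of a P450, is given here for a gene of each kind, to show which members are near copies. It is 30 bases long, is written 5′ to 3′ on the coding strand from the GENCODE transcripts, and has the cysteine codon in capitals.
Cyp4a10: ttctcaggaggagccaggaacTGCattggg
Cyp4a12a: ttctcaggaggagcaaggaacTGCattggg
Cyp4a14: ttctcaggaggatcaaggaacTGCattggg
Cyp4f14: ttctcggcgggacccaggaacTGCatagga
Cyp4f15: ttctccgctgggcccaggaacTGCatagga
Cyp4v3: ttttctgctggacctcgaaacTGTattggt

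In each of the 10 genes an exon boundary cuts this coding stretch, so its ends on the genome lie further apart than 30 bases. For *Cyp4a10* it spans chr4:115529502-115532543 on the forward strand (exons 11 and 12), for *Cyp4a12a* chr4:115328986-115331846 on the forward strand and for *Cyp4a14* chr4:115487299-115489805 on the reverse strand. For *Cyp4f14* it spans chr17:32905666-32906065 on the reverse strand, for *Cyp4f15* chr17:32702398-32702801 on the forward strand and for *Cyp4v3* chr8:45307107-45308407 on the reverse strand. *Cyp4a31* and *Cyp4a32* have the same 30 bases as *Cyp4a10*, and *Cyp4a12b* has the same as *Cyp4a12a*. Counted against *Cyp4a10*, 1 base differs in *Cyp4a12a*, 2 in *Cyp4a14*, 6 in *Cyp4f13* and in *Cyp4f14*, 7 in *Cyp4f15* and 10 in *Cyp4v3*.

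Over the whole coding sequence the same grouping appeared. *Cyp4a12a* and *Cyp4a12b* were identical at 98.5% of aligned bases, *Cyp4a10* and *Cyp4a32* at 97.2%, and *Cyp4a10* and *Cyp4a31* at 96.6%. *Cyp4a14* was more distant, with 75.1% identity to *Cyp4a10*. Of all 31-base stretches in the transcripts of a gene, the share that also occurred in another gene was 62.2% for *Cyp4a12a*, 62.9% for *Cyp4a12b*, 62.8% for *Cyp4a32*, 44.9% for *Cyp4a10* and 32.0% for *Cyp4a31*. It was 1.99% for *Cyp4a14* and between 3.76% and 7.49% for the 3 Cyp4f genes and *Cyp4v3*. The split of reads within the *Cyp4a12* pair and within *Cyp4a10*, *Cyp4a31* and *Cyp4a32* is therefore uncertain, whereas nearly all of the *Cyp4a14* sequence belongs to that gene alone.

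**Figure D1:**
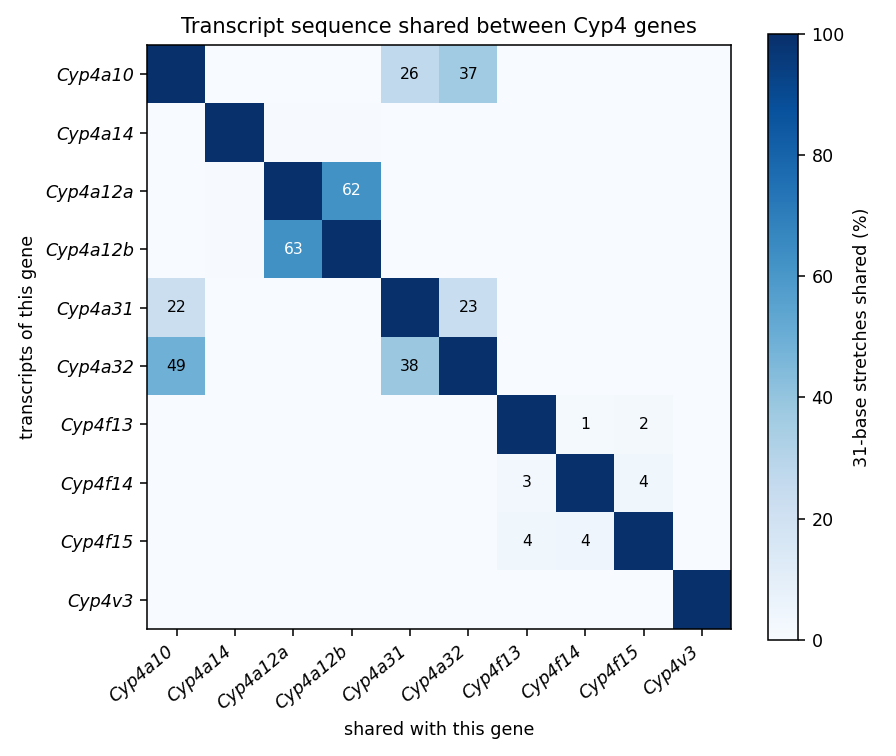
Share of the 31-base stretches in the transcripts of each gene (rows) that also occur in the transcripts of another Cyp4 gene (columns), in percent; shares of 1% or more are printed. The *Cyp4a12* pair shares more than 60% and *Cyp4a10*, *Cyp4a31* and *Cyp4a32* share with each other, while *Cyp4a14* shares almost nothing with any of them.

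Facts about the libraries touch the values below. *Usp21*, the knocked-out gene, had 4.07 and 6.29 TPM in WT against 1.64 and 2.93 TPM in KO, and neither KO library reached the lower WT value (log2 difference -0.92, standard error 0.33, adjusted p = 0.464 by limma). TPM keeps no record of depth. In the second deposited table, reads counted per gene came to between 102898 and 148164 per library, and 8 of the 10 Cyp4 genes were at 0 in all 4 libraries of that table. The remaining 2 had a single read each, *Cyp4f13* in KO replicate 3 and *Cyp4v3* in WT replicate 2. Abundant genes were missing from that table in the same way: of 682 genes that reached 100 TPM in each library, 428 were at 0 throughout. A count of 0 there allows up to 3 reads, by counting error only, and the Cyp4 genes are not compared on it. The liver label fitted its markers: all 10 hepatocyte markers were expressed and summed to between 58334 and 83347 TPM, while 6 of 8 markers of pancreas, fat and kidney were at 0 in every library and the 8 summed to at most 1.22 TPM. Y-linked *Eif2s3y* had between 11.9 and 24.4 TPM and *Ddx3y* between 7.14 and 20.5 TPM, so Y-linked transcripts were present in all 4 libraries.

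*Cyp4a10* and *Cyp4a14*, the PPAR-alpha-responsive hydroxylases, were far higher in a single WT library than in the 3 other libraries. *Cyp4a10* had 508 TPM in WT replicate 2, 88.0 TPM in WT replicate 3, 39.7 TPM in KO replicate 1 and 91.3 TPM in KO replicate 3. WT replicate 2 was 5.56-fold above the next library, and WT replicate 3 lay between the KO libraries, so the groups overlapped. *Cyp4a14* had 356 TPM in WT replicate 2, 21.6 TPM in WT replicate 3, 8.76 TPM in KO replicate 1 and 20.7 TPM in KO replicate 3. Here WT replicate 2 was 16.5-fold above the next library, and the groups were apart by the small step between 21.6 and 20.7 TPM.

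The mean of *Cyp4a10* was 298 ± 297 TPM in WT and 65.5 ± 36.5 TPM in KO (SD, n = 2 libraries per genotype). For *Cyp4a14* it was 189 ± 237 TPM in WT and 14.7 ± 8.41 TPM in KO, so that in WT the SD was about as large as the mean or larger. On the log2(TPM + 1) scale used throughout, on which a pseudocount of 1 is added and changes of low genes are understated, the difference of KO minus WT was -1.80 for *Cyp4a10* (standard error 0.84) and -2.63 for *Cyp4a14* (standard error 1.25). Without WT replicate 2 these differences were -0.54 and -0.64. Without WT replicate 3 they were -3.05 and -4.62. Without KO replicate 1 the difference was -1.21 for *Cyp4a10* and -2.05 for *Cyp4a14*, and without KO replicate 3 it was -2.39 and -3.20. Most of the lower mean in KO thus rested on WT replicate 2. In whole tissue, fewer cells that express a gene and less RNA per cell cannot be told apart.

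Within the KO pair the 2 genes had like ratios. KO replicate 1 had 0.434 times the *Cyp4a10* level and 0.424 times the *Cyp4a14* level of KO replicate 3, while WT replicate 3 had 0.964 and 1.05 times the level of KO replicate 3. WT replicate 3 and KO replicate 3 were therefore nearly alike for both genes although their genotypes differ.

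**Figure D2:**
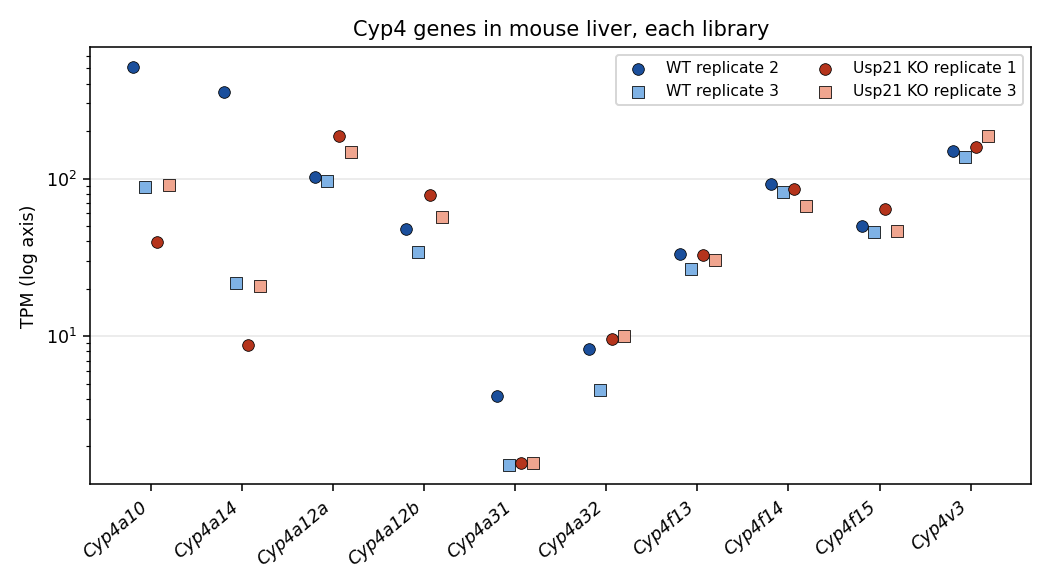
TPM (log axis) of each Cyp4 gene in each of the 4 libraries; blue symbols are WT and red symbols *Usp21* KO, with no mean drawn. For *Cyp4a10* and *Cyp4a14* the point of WT replicate 2 stands at 508 and 356 TPM, far above the 3 other points, whereas for *Cyp4a12a* and *Cyp4a12b* both KO points lie above both WT points.

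A single library that far above the rest was uncommon. Among the 9581 genes whose mean reached 1 TPM, 79 (0.825%) had a highest library at least 4 times the next, and in 13 (0.136%) that library was WT replicate 2. WT replicate 3 was that library for 18 genes, KO replicate 1 for 29 and KO replicate 3 for 19. Among the 4025 genes whose mean reached 10 TPM, WT replicate 2 was at least 4 times the next library for 4 genes, which were *Zfp865*, *Gm10443*, *Cyp4a14* and *Cyp4a10*. At that level the number of genes was 6 for WT replicate 3, 5 for KO replicate 1 and 4 for KO replicate 3. *Zfp865* had 64.1 TPM in WT replicate 2 and at most 2.07 TPM elsewhere, and *Gm10443* had 114.7 TPM there and was listed at 0 in the 3 other libraries. *Zfp865* and *Gm10443* are named here after their values were seen. *Cyp4a10* and *Cyp4a14* were chosen with these values in view, so the counts are a description and no test of them.

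*Cyp4a31* and *Cyp4a32* are the near copies of *Cyp4a10* and were much lower. *Cyp4a31* had 4.18 TPM in WT replicate 2 and between 1.53 and 1.56 TPM in the 3 other libraries, so WT replicate 2 was again the high one, by 2.67-fold. Its log2 difference was -0.50 (standard error 0.39) and turned to 0.016 without WT replicate 2. *Cyp4a32* had 8.25 and 4.57 TPM in WT against 9.64 and 10.1 TPM in KO, with the KO pair wholly above the WT pair and a log2 difference of 0.60 (standard error 0.30). Leaving out WT replicate 2 gave 0.96, and leaving out WT replicate 3 gave 0.23. Summed over *Cyp4a10*, *Cyp4a31* and *Cyp4a32*, which removes the uncertainty of the split between them, the TPM were 520 and 94.1 in WT and 50.9 and 102.9 in KO, and the difference was -1.60.

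*Cyp4a12a* and *Cyp4a12b*, the male-type hydroxylases that turn arachidonic acid into 20-HETE, were higher in both KO libraries than in both WT libraries. *Cyp4a12a* had 101.7 and 96.6 TPM in WT against 185.5 and 146.7 TPM in KO. *Cyp4a12b* had 48.1 and 34.1 TPM in WT against 78.3 and 56.9 TPM in KO. Mean *Cyp4a12a* was 99.1 ± 3.66 TPM in WT and 166 ± 27.5 TPM in KO (SD, n = 2 each), and the log2 difference was 0.73 (standard error 0.19). It stayed between 0.56 and 0.90 with any library left out. For *Cyp4a12b* the log2 difference was 0.71 (standard error 0.25), with values from 0.47 to 0.95 when a library was left out. Added together, the pair had 149.8 and 130.7 TPM in WT against 263.8 and 203.6 TPM in KO, a ratio of means of 1.67.

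Other male-biased liver genes gave a background for that pair. For these and the lists that follow, the comparison over all 9581 tested genes is a higher mean in KO in 66.7%, a median log2 difference of 0.15, and an unadjusted p under 0.05 in 1005 (10.5%), with 8.45% of all genes past it and higher in KO. Of 19 such genes tested, the mean was higher in KO for 15 and lower for 4, with a median log2 difference of 0.42, and 0 passed an adjusted p of 0.05 in limma (5 had an unadjusted p under 0.05, 4 of them higher). The groups were apart and higher in KO for 7 of the 19 and apart and lower for 1, beside 34.4% and 10.9% of all tested genes. edgeR tested 5 of them on recovered reads and called 0, with 0 at an unadjusted p under 0.05. It kept any gene with a recovered read, and in those counts many abundant genes were at 0. Its results for this list and the later ones therefore cannot decide whether a gene differed. The 3 most abundant were major urinary proteins, the pheromone carriers of male urine, whose many near copies make single values uncertain. *Mup7* had 34372 and 58123 TPM in WT against 13674 and 46019 TPM in KO, *Mup20* had 10129 and 21688 TPM in WT against 19129 and 23268 TPM in KO, and *Mup3* had between 11415 and 15724 TPM in all 4 libraries. All 3 overlapped between genotypes. Of 20 female-biased genes, 4 reached a mean of 1 TPM, 2 with a higher and 2 with a lower mean in KO; the median difference was -0.04, with 0 past the adjusted threshold (1 unadjusted, lower). The highest were *Cyp2b10* (1.46 to 4.44 TPM), *Acot3* (0.107 to 4.77 TPM) and *Fmo2* (1.04 to 2.57 TPM).

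The Cyp4f genes, which act mainly on eicosanoids, were close to level. *Cyp4f14*, a leukotriene B4 omega-hydroxylase, had 92.4 and 82.0 TPM in WT against 85.7 and 67.4 TPM in KO. *Cyp4f15* had 50.1 and 45.6 TPM in WT against 64.5 and 46.4 TPM in KO, and *Cyp4f13* had 33.0 and 26.6 TPM in WT against 32.8 and 30.4 TPM in KO. The groups overlapped for each of these genes. The log2 differences were -0.19 for *Cyp4f14*, 0.19 for *Cyp4f15* and 0.09 for *Cyp4f13*, with standard errors of 0.19, 0.21 and 0.19. The sign for *Cyp4f15* turned without KO replicate 1 (-0.04) and that for *Cyp4f13* without WT replicate 3 (-0.06). Summed, the 3 genes had 165 ± 15.1 TPM in WT and 164 ± 27.4 TPM in KO.

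*Cyp4v3*, which hydroxylates medium-chain fatty acids, was among the 3 most abundant members in each library. Its level was 149.9 and 136.0 TPM in WT against 157.5 and 185.4 TPM in KO, so the groups were apart by the step from 149.9 to 157.5 TPM. The log2 difference was 0.26 (standard error 0.17). With the libraries scaled to an equal upper quartile it was 0.12 and the groups overlapped.

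Counted over all 10 genes, the KO pair lay wholly above the WT pair for 4 (*Cyp4a12a*, *Cyp4a12b*, *Cyp4a32* and *Cyp4v3*) and wholly below it for 1 (*Cyp4a14*), and the groups overlapped for 5. Among all tested genes, 34.4% were apart and higher in KO and 10.9% apart and lower, so nothing is read from the member counts. A difference of at least 2-fold with the groups apart occurred in 2.93% of tested genes and in 1 of the 10, *Cyp4a14*. The limma test on all genes called 8 (0.0835%) at an adjusted p under 0.05, and none of the 10 Cyp4 genes was among them. Since the 10 genes were chosen from these same values, nothing is concluded about them from that result. The median log2 difference was 0.14 over the 10 genes and 0.15 over all tested genes, and every difference above can be read against that general shift. Scaling to an equal upper quartile lowered the shift to 0.04. The genes higher in KO then made up 56.9% of all genes that were apart, against 75.9% as deposited. On that scale, *Cyp4a10*, *Cyp4a14*, *Cyp4a31* and *Cyp4f14* were apart and lower in KO, and *Cyp4a12a*, *Cyp4a12b* and *Cyp4a32* apart and higher.

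**Figure D3:**
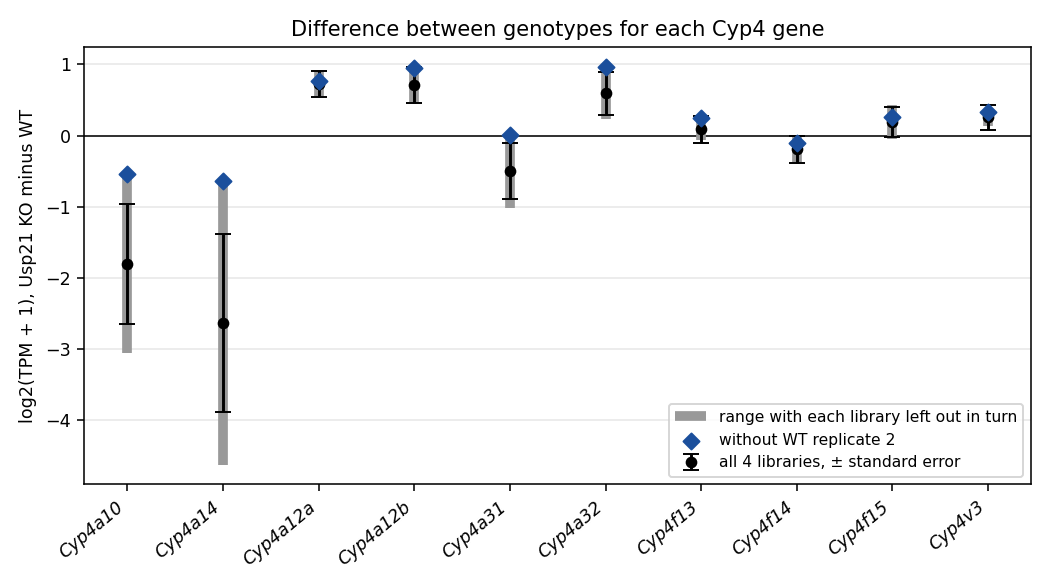
Difference of mean log2(TPM + 1), *Usp21* KO minus WT, for each Cyp4 gene with all 4 libraries (black points, bars are the standard error), the range when each library is left out in turn (grey) and the value without WT replicate 2 (blue). The values for *Cyp4a10* and *Cyp4a14* shrink from -1.80 and -2.63 to -0.54 and -0.64 without that library, while those for *Cyp4a12a* and *Cyp4a12b* stay above 0.

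The order of the members by abundance changed with the library. In WT replicate 2 it began with *Cyp4a10*, *Cyp4a14* and *Cyp4v3*. In WT replicate 3 and KO replicate 3 it began with *Cyp4v3*, *Cyp4a12a* and *Cyp4a10*, and in KO replicate 1 with *Cyp4a12a*, *Cyp4v3* and *Cyp4f14*. *Cyp4a31* was the lowest in all 4. The neighbours *Cyp4v3* and *Cyp4a12a* changed places between the KO libraries (157.5 and 185.5 TPM in replicate 1, 185.4 and 146.7 TPM in replicate 3), so their order is not settled by the replicates.

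Summed over the 10 genes, the libraries had 1352 and 537 TPM in WT against 664 and 657 TPM in KO. *Cyp4a10* and *Cyp4a14* together held 63.9% of that sum in WT replicate 2, 20.4% in WT replicate 3, 7.29% in KO replicate 1 and 17.1% in KO replicate 3. The share of the *Cyp4a12* pair was 11.1% and 24.4% in WT and 39.7% and 31% in KO. Leaving *Cyp4a10* and *Cyp4a14* out, the other 8 genes summed to 457 ± 42.9 TPM in WT and 580 ± 50 TPM in KO (SD, n = 2 each), with the KO pair wholly above the WT pair and a log2 difference of 0.34. Those 2 genes were left out after their values were seen, and 34.4% of all tested genes were likewise apart and higher in KO. Most of the rise lay in the *Cyp4a12* pair, with means of 140 TPM in WT and 234 TPM in KO, while the 3 Cyp4f genes had 165 and 164 TPM.

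**Figure D4:**
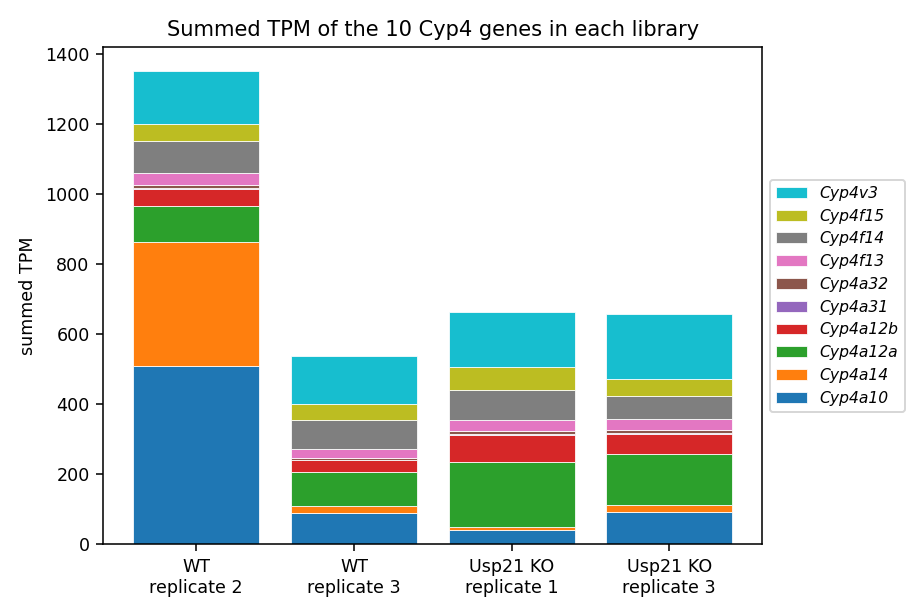
Summed TPM of the 10 Cyp4 genes in each library, one bar per library with a segment for each gene. The bar of WT replicate 2 reaches 1352 TPM, of which *Cyp4a10* and *Cyp4a14* make up 63.9%, and the 3 other bars lie between 537 and 664 TPM.

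The rest of the family contributed little. Of the 18 other Cyp4 rows, 12 were at 0 in all 4 libraries and 5 reached 1 TPM in a library. *Cyp4b1* had between 3.38 and 6.10 TPM, *Cyp4f17* between 0.793 and 2.86 TPM, *Cyp4f16* between 0.653 and 1.73 TPM and *Cyp4f18* between 0.198 and 1.14 TPM. A row of the pseudogene *Cyp4f41-ps* had 1.23 TPM in WT replicate 2 and at most 0.493 TPM elsewhere. Of *Cyp4b1*, *Cyp4f16* and *Cyp4f17*, which were tested, limma called 0 (0 at an unadjusted p under 0.05), and edgeR could test none of them.

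None of the other PPAR-alpha target genes stood as far above the next library in WT replicate 2 as *Cyp4a10* and *Cyp4a14*. Of the 27 targets tested, 7 had their highest value in that library, and none was 4 times the next. Over the 27, the median of WT replicate 2 minus WT replicate 3 was 0.31 on the log2(TPM + 1) scale, compared with 2.52 for *Cyp4a10* and 3.98 for *Cyp4a14*. Most of the 27 were thus higher in WT replicate 2 than in WT replicate 3, by a smaller difference. The same median over all genes was not computed, and the part of PPAR-alpha in the Cyp4 values was not tested. The target with the largest such difference was *Acot1*, a cytosolic acyl-CoA thioesterase, at 2.23. *Acot1* had 38.2 and 7.38 TPM in WT against 22.6 and 58.4 TPM in KO, so its highest level was in KO replicate 3.

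**Figure D5:**
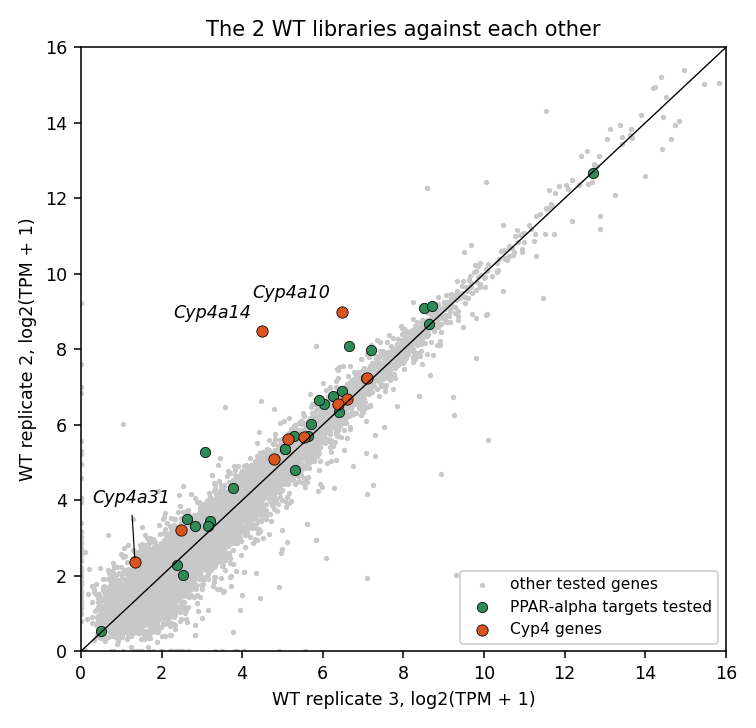
log2(TPM + 1) in WT replicate 2 (y axis) against WT replicate 3 (x axis) for all tested genes (grey), the tested PPAR-alpha targets (green) and the Cyp4 genes (orange); the line marks equal values. *Cyp4a10* and *Cyp4a14* lie 2.52 and 3.98 above the line, and the green points lie nearer to it, with a median of 0.31.

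Between genotypes, the mean was higher in KO for 21 of the 27 PPAR-alpha targets and lower for 6, with a median log2 difference of 0.19 beside 0.15 over all tested genes. Limma called 0 of them at an adjusted p of 0.05 (6 higher and 1 lower had an unadjusted p under 0.05), and edgeR called 0 of the 8 it could test, with 0 unadjusted. Without WT replicate 2 the median was 0.50, without KO replicate 1 it was 0.45, without WT replicate 3 it was 0.05 and without KO replicate 3 it was 0.12. *Plin2*, a lipid droplet coat protein, had 118.9 and 88.7 TPM in WT against 178.5 and 270.6 TPM in KO (log2 difference 1.09, adjusted p = 0.461 by limma). *Plin5*, another droplet protein, had 9.92 and 8.20 TPM in WT against 22.2 and 18.1 TPM in KO (1.07, adjusted p = 0.402 by limma). For *Acot1* the difference was 1.05, with overlapping groups. *Acot3*, a peroxisomal thioesterase, had 3.06 and 4.77 TPM in WT against 0.107 and 1.56 TPM in KO (-1.52, adjusted p = 0.464 by limma). 

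The receptor itself, *Ppara*, was nearly level, with 11.6 and 12.8 TPM in WT against 13.2 and 13.9 TPM in KO. It was not among the genes that the rule on the largest differences named, and it is given because *Cyp4a10* and *Cyp4a14* are its targets. Of the 11 genes for the receptor and its partners that were tested, 8 had a higher and 3 a lower mean in KO (median 0.36), and limma called 0 (1 higher at an unadjusted p under 0.05). edgeR tested 2 and called 0, with 0 unadjusted. *Ppargc1a*, a coactivator, had 0.681 and 0.482 TPM in WT against 2.43 and 1.19 TPM in KO, and *Ncor1*, a corepressor, had 13.1 and 21.7 TPM in WT against 28.4 and 29.8 TPM in KO. *Med1*, a Mediator subunit, and *Ppard*, a related receptor, had log2 differences of 0.48 and 0.40, with adjusted p of 0.536 and 0.608 by limma.

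None of the enzymes that work with Cyp4 in omega oxidation passed the adjusted threshold. Of 27 tested, 12 had a higher and 15 a lower mean in KO, the median was -0.05, and limma called 0 (2 higher and 5 lower at an unadjusted p under 0.05). edgeR tested 9 and called 0, with 0 unadjusted. The median became 0.12 without WT replicate 2 and 0.12 without KO replicate 1, so its sign was not stable. *Por*, the electron donor of all microsomal P450 enzymes, had 175.2 and 167.7 TPM in WT against 81.8 and 81.4 TPM in KO, with a log2 difference of -1.06 (standard error 0.16, unadjusted p = 0.000631, adjusted p = 0.203 by limma). The step between the genotypes was far wider than that between the replicates of either, although it missed the adjusted threshold. *Crot*, which moves shortened acyl groups out of peroxisomes, had 186.0 and 101.2 TPM in WT against 262.1 and 293.5 TPM in KO (1.01, adjusted p = 0.464 by limma). *Aldh1a1*, an aldehyde dehydrogenase, had 692 and 614 TPM in WT against 318 and 521 TPM in KO (-0.68, adjusted p = 0.473 by limma).

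From the circadian clock list 1 gene passed the adjusted threshold between the genotypes, and from the fasting list 0. Of 12 clock genes tested, 5 had a higher and 7 a lower mean in KO (median -0.44). By limma, 3 higher and 6 lower had an unadjusted p under 0.05. The groups were apart and higher in KO for 3 and apart and lower for 7, beside 34.4% and 10.9% of all tested genes. *Dbp*, a clock output factor, had 56.8 and 41.3 TPM in WT against 4.73 and 4.97 TPM in KO (log2 difference -3.08, adjusted p = 0.0193 by limma), and it was the only one of 12 clock genes tested to pass the adjusted threshold. *Ciart*, a clock repressor, had 5.70 and 5.61 TPM in WT against 0.301 and 0.194 TPM in KO (adjusted p = 0.0890 by limma). *Arntl*, which encodes the clock activator BMAL1, had 0.241 and 0.243 TPM in WT against 5.89 and 4.05 TPM in KO (adjusted p = 0.154 by limma). *Nfil3*, a repressor that opposes *Dbp*, had 3.86 and 8.13 TPM in WT against 17.0 and 24.5 TPM in KO. Among 11 fasting genes, 9 had a higher and 2 a lower mean in KO (median 0.63), and limma called 0 (6 higher at an unadjusted p under 0.05). For 8 of the 11 the groups were apart and higher in KO and for 0 apart and lower, beside the same 34.4% and 10.9%. edgeR tested 4 clock and 2 fasting genes and called 0, with 0 unadjusted. *G6pc*, the last enzyme of glucose release, had 22.4 and 31.6 TPM in WT against 56.4 and 172.8 TPM in KO, *Lpin1*, a phosphatidate phosphatase, had 10.3 and 23.1 TPM in WT against 52.5 and 54.8 TPM in KO, and *Igfbp1*, an IGF-binding protein, had 6.28 and 18.4 TPM in WT against 21.5 and 42.3 TPM in KO. *Txnip* had between 8.25 and 9.13 TPM in 3 libraries and 41.4 TPM in KO replicate 3. WT replicate 2 was the lowest of the 4 libraries for *G6pc*, *Lpin1* and *Igfbp1*. The part of the clock and fasting genes in the Cyp4 values was not tested, and the hour of collection cannot be told apart from genotype.

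No marker of another liver cell type passed the adjusted threshold. Kupffer and macrophage markers (8 of 8 expressed) summed to 102.5 and 113.8 TPM in WT against 57.4 and 151.3 TPM in KO. Endothelial markers (8 of 8) summed to between 51.8 and 78.9 TPM, and cholangiocyte markers (2 of 6 tested) to 14.6 and 16.2 TPM in WT against 38.3 and 24.5 TPM in KO. Most of that last sum was *Spp1*, with 13.2 and 12.7 TPM in WT against 33.4 and 20.7 TPM in KO, and each of the 5 other cholangiocyte markers stayed at or below 2.41 TPM, with overlapping groups for 4 of them. Stellate cell and fibroblast markers (6 of 8 tested) summed to 58.1 and 48.4 TPM in WT against 99.5 and 73.0 TPM in KO, both KO libraries being higher. Most of that sum was *Dcn*, named after its values were seen, with 42.6 and 34.1 TPM in WT against 62.8 and 48.4 TPM in KO. Of the 6 tested, 4 were apart and higher in KO and 0 apart and lower, beside 34.4% and 10.9% of all tested genes. Lymphocyte markers summed to at most 4.54 TPM. Limma called 0 markers of these lists or of the hepatocyte list (5 at an unadjusted p under 0.05 over all lists) and edgeR 0 (1 unadjusted, a hepatocyte marker). The part of these cells in the Cyp4 values was not tested.

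Outside the family, the genes whose pattern over the 4 libraries was most like that of *Cyp4a10* were found by the Euclidean distance of log2(TPM + 1), each gene centred on its own mean, among 4017 genes whose mean reached 10 TPM. They were *Obp2a*, *Asic5*, *Slc2a2*, *Apoa4* and *Retsat*, at distances from 1.39 to 1.64, and *Cyp4a14* lay at 1.33. *Slc2a2*, the hepatic glucose transporter, had 105.4 and 69.3 TPM in WT against 31 and 52.8 TPM in KO. *Apoa4*, an apolipoprotein, had 77.9 and 44.9 TPM in WT against 22.3 and 55.5 TPM in KO, and *Retsat*, a retinol saturase on the PPAR-alpha list, had 272.4 and 99.3 TPM in WT against 75.8 and 215.7 TPM in KO. In each the step from WT replicate 2 to the next library was smaller than for *Cyp4a10*. For *Cyp4a14* the 5 nearest were *Zfp865* (distance 1.29), *Gm10443* (2.33), *Dbp*, *Obp2a* and *Asic5* (2.65 to 2.79). With 4 libraries, 1 of which stands apart for these genes, the likeness is a description only.

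The promoters of 5 members (*Cyp4a32*, *Cyp4f13*, *Cyp4f14*, *Cyp4f15* and *Cyp4v3*) were read from RefSeq, from 250 bases before to 50 after the gene start. The half-site AGGTCA, on either strand, was in 0 of these 5 windows and in 16.3% of 32851 promoters of the same length. No window was available for *Cyp4a10*, *Cyp4a14*, *Cyp4a12a*, *Cyp4a12b* and *Cyp4a31*. With 5 windows and that share, nothing is read from the count.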

How the data were processed

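Liver RNA-seq (Illumina MiSeq) of 2 WT and 2 *Usp21* KO libraries was analysed, grouped by the labels. The authors estimated abundance with salmon against mm10 and deposited TPM per gene, and a log2 table that equals log2(TPM + 1) of the deposited TPM. The authors also deposited HTSeq gene counts scaled by the TMM method as CPM, a count-based signal, and a log2 version of it. Tool versions and the annotation release were not given in the sources used here. Salmon shares out reads that fit several transcripts, so values of near-identical Cyp4 genes depend on that split. Those CPM values are whole multiples of 1 read (100% of values above 0, within 0.02 reads), which gave 148164 and 110427 reads in WT and 145306 and 102898 in KO.

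The 9581 genes whose mean reached 1 TPM were fitted on log2(TPM + 1) with limma 3.58.1 (trend of the variance, two-sided, Benjamini-Hochberg) in R 4.3.3. The labels give only genotype and replicate number and do not say whether each library is a separate animal. The p-values therefore measure the spread between these libraries, which may be technical or between animals. An exact permutation test of 2 against 2 cannot give a p below 0.333. The Cyp4 genes and the gene lists were chosen with earlier results of these data known. The genes named were the 10 Cyp4 genes, other Cyp4 genes at 1 TPM or more in a library, *Usp21*, the 4 largest differences of each pathway list with any gene past adjusted p 0.05, sex chromosome genes, the 3 most abundant of each sex-biased list, and the 5 genes nearest in pattern to *Cyp4a10* and *Cyp4a14*; others are marked, and 1 gene that the rule named is not reported here. Groups are called apart when both KO values lie above both WT values, or both below. Alternatives were pseudocounts of 0.1 and 5, no filter or a mean of at least 5 TPM, an equal upper quartile, the CPM table, variances without moderation, summed near copies and each library left out. edgeR 4.0.16 on the recovered reads, and the count of Cyp4 genes apart with a library left out, were added after seeing the data. The scripts were tested on simulated data. Sequences and positions came from GENCODE M21 (GRCm38).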

Additional observations from a re-analysis of the deposited data

How the results depend on the processing

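No paired analysis was possible because the genotypes share only replicate number 3. No difference was computed for the Cyp4 genes from the CPM table, where 8 were at 0 and 2 had 1 read, within the 3 reads that a count of 0 allows. Of 72 recomputed log2 differences of Cyp4 genes, 68 kept their sign and 4 changed it: *Cyp4a31* (-1.01 to 0.016 with 1 library left out, positive without WT replicate 2), *Cyp4f13* (-0.040 with an equal upper quartile, and -0.060 to 0.24 with 1 library left out, negative without WT replicate 3) and *Cyp4f15* (-0.041 to 0.43, negative without KO replicate 1). With 1 library left out *Cyp4a10* kept its sign but ranged from -3.05 to -0.54 and *Cyp4a14* from -4.62 to -0.64, the smallest sizes being without WT replicate 2. The number of Cyp4 genes with groups apart, 5 of 10, ranged from 6 to 9 with 1 library left out (8 without WT replicate 2, 9 without WT replicate 3), where fewer libraries make groups apart more often. The number of genes past adjusted p 0.05, 8 in limma, fell to 4 without a filter, to 0 without moderated variances (806 at an unadjusted p under 0.05) and to 0 with any 1 library left out (542 to 1188 at an unadjusted p under 0.05), and edgeR on recovered reads called 12 of 5146. The 281 genes changed at least 2-fold with groups apart became 644 with a pseudocount of 0.1, 87 with 5, 161 at a mean of at least 5 TPM, 533 of 5146 in the CPM table and between 418 and 662 with 1 library left out. The median of the omega oxidation enzymes, -0.05, was -0.18 with an equal upper quartile and between -0.079 and 0.12 with 1 library left out. That of the PPAR-alpha targets, 0.19, was 0.57 over the 7 targets of the CPM table and between 0.054 and 0.50 with 1 library left out. The causes were not tested.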

Other observations

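Of the 19 male-biased genes, 3 are given after their values were seen, none past an adjusted p of 0.05 in limma. *Elovl3*, a fatty acid elongase, had 87.5 and 10.8 TPM in WT against 252.9 and 208.3 TPM in KO. Leaving out WT replicate 3 took its log2 difference from 2.83 to 1.38, and leaving out WT replicate 2 took it to 4.29. *Ugt2b38*, a glucuronosyltransferase, had 3.96 and 6.36 TPM in WT against 32.5 and 28.1 TPM in KO (2.37). *Cyp2d40*, another P450, went the other way, with 68.3 and 76.2 TPM in WT against 28.1 and 56.2 TPM in KO. Its log2 difference of -0.84 was -0.35 without KO replicate 1 and -1.33 without KO replicate 3.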
